A study of Arabidopsis thaliana with 6 samples.

Results

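Chitinases cleave chitin, the N-acetylglucosamine polymer of fungal cell walls and arthropod cuticles, which plants themselves do not make. Plant chitinases belong to glycosyl hydrolase families 18 and 19, which share no fold, and some carry a chitin-binding domain before the catalytic domain. In Arabidopsis several are classical pathogenesis-related proteins, and chitin fragments are perceived at the cell surface by receptors with lysin motifs. The 10 chitinase genes described here were named by locus identifier, and all 10 were found among the 27416 genes of the deposited table. The family domains of the annotation matched the label: 9 of the 10 carry a family 19 catalytic domain, 7 of these also a chitin-binding domain of type 1, and 1 (CHIA) carries a family 18 catalytic domain.

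Expression was measured by RNA-seq in 7-day-old wild-type seedlings of Arabidopsis thaliana that received water (control, 3 libraries) or the peptide CLE9 at 200 nM (3 libraries). CLE9 belongs to the CLE family of short secreted signalling peptides. Neither the length of the treatment nor the origin of the libraries (separate cultures or not) is stated in the labels. Errors and p-values thus cover the spread among these 6 libraries, and that spread may be technical. Values are FPKM, fragments scaled by transcript length and by the library's mapped fragments, so levels of different genes are compared per length. The low values of genes without introns pointed to depths of about 20.7 to 31.7 M fragments per library, so that a single fragment on 1 kb of transcript contributes 0.0315 to 0.0483 FPKM.

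Replicate 2 of both groups stood apart, and this touches most results below. All 11 genes of a list of touch- and wound-induced genes were higher in control replicate 2 than in the other controls, by a median of 4.47 on the log2(FPKM + 1) scale, and all 11 were higher in CLE9 replicate 2 than in the other CLE9 libraries, by a median of 3.08. Of all 17812 genes tested, 30.3% were above both other controls in control replicate 2 and 59.6% were below both. In CLE9 replicate 2 these shares were 29.7% and 57.4%. The summed level of this list was between 730.1 and 4135 FPKM with water, against 1571 and 3993 FPKM with CLE9. Of 12 root markers 11 were lower in control replicate 2 (median shift -1.29) and 10 in CLE9 replicate 2 (median shift -2.05). The summed root marker level was between 63.6 and 138.7 FPKM in the water libraries, against between 41.9 and 135.9 FPKM with CLE9. A further listed root marker, MRN1, was at or near 0 in every library and was not tested, while the 12 tested had means of 1 FPKM or more. The 6 leaf markers summed to between 24899 and 27282 FPKM with water and, in the CLE9 libraries, between 11691 and 29664 FPKM, with the lowest sum in CLE9 replicate 2. In whole seedlings, fewer cells of a type and less RNA per cell cannot be told apart.

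The members were chosen with the CLE9 contrast of these libraries known, AT4G01700 and AT1G02360 for their increase in it. The values of the 10 genes in this contrast are therefore a description and carry no test. A change is the mean log2(FPKM + 1) of the CLE9 libraries less that of the controls, given with the standard error from limma's group-only model. The pseudocount of 1 understates the change of genes at a few FPKM.

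Before the values, the upstream sequences of 5 members are shown, because these genes give the contrasts the results turn on: the pair with the largest changes (AT4G01700 and AT1G02360), tandem neighbours with unlike profiles (AT2G43620 and AT2G43610) and another gene of the same array (CHI, AT2G43570). Each is the 250 bases before the outermost annotated start in RefSeq's annotation of TAIR10.1, written 5′ to 3′ on the gene's own strand, which is the minus strand for all 5. They lie at chr4:733511-733760, chr1:473337-473586, chr2:18095094-18095343, chr2:18089372-18089621 and chr2:18077518-18077767. Capitals mark TTGAC or its reverse complement GTCAA, the core of the W-box that WRKY transcription factors bind.
AT4G01700: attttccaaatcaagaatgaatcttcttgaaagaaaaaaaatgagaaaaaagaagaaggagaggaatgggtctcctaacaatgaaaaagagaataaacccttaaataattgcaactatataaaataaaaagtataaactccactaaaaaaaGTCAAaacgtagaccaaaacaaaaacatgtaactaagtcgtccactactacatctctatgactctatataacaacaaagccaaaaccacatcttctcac
AT1G02360: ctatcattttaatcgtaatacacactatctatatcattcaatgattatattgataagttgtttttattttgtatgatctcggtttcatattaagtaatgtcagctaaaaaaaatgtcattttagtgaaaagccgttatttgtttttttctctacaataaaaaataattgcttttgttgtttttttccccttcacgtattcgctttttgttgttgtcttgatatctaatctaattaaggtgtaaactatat
AT2G43620: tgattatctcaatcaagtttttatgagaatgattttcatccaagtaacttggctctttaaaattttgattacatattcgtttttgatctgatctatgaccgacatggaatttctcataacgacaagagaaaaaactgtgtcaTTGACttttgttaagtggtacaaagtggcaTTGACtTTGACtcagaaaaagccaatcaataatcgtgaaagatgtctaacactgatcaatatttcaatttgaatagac
AT2G43610: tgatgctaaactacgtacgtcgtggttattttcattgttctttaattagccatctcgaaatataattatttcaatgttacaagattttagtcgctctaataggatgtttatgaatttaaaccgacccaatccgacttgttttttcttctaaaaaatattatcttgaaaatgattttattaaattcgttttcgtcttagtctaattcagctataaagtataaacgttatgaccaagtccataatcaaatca
AT2G43570: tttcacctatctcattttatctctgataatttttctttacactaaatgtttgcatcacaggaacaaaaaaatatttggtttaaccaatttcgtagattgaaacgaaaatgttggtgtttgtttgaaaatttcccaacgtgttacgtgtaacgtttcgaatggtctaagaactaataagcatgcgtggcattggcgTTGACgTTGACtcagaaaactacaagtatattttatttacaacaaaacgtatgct

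TTGAC (searched on both strands) was found in 5 of the 10 upstream windows, against 44.9% of 27443 windows of protein-coding genes, so its presence did not set the members apart. AT2G43620 held 3 copies, AT2G43570 held 2 and AT4G01700 held 1, and the window of AT2G43610 held 0. The window of AT1G02360 held 0 as printed, while the 250 bases before the start of its first transcript model, which lies 176 bases downstream, held 2. GCCGCC (the GCC box of ethylene response factors) and CACGTG (the G-box) were in none of the 10 windows, against 1.87% and 6.49% of all windows. AT2G43620 and AT2G43570 each held a pair of TTGAC cores with 1 base between them (searched on both strands and chosen after the sequences were seen). This arrangement occurred in 81 of the 27443 windows (0.295%). The second core of each pair starts a run of 13 bases found in both windows, TTGACtcagaaaa, which begins 72 bases upstream of the start of AT2G43620 and 49 bases upstream of AT2G43570. A match is a description of the letters and shows no binding.

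AT4G01700 and AT1G02360 encode family 19 chitinases without a chitin-binding domain, and by coding sequence each is the other's closest relative among the members (75.6% identical over 816 aligned bases). AT4G01700 (chromosome 4, 732313 to 733510, minus strand in the deposited TAIR10 coordinates) was at 12.7, 81.5 and 13.7 FPKM in control replicates 1, 2 and 3 and at 250.6, 714 and 241.8 FPKM in CLE9 replicates 1, 2 and 3. Every CLE9 library lay above every control, and replicate 2 was the highest library of each group. The means were 36.0 ± 39.5 and 402.1 ± 270.1 FPKM (SD, n = 3 each), a change of 3.79 ± 0.82. Within the replicate numbers the level with CLE9 was 19.8, 8.76 and 17.7 times that of the control. The 3′ end of the gene overlaps PPOX, a protoporphyrinogen oxidase gene on the other strand, by 121 bases. PPOX was at 81.6 ± 9.45 FPKM with water, against 69.8 ± 33.4 FPKM with CLE9, so its level did not follow that of AT4G01700. No label states that strand was used in counting, so the reads of the overlap cannot be told apart.

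AT1G02360 (chromosome 1, 471990 to 473160, minus strand) was at 9.09, 37.1 and 11.8 FPKM in the water libraries, against 125.1, 226.4 and 101.3 FPKM with CLE9. The groups again did not overlap, and replicate 2 was again highest in each. The change was 3.07 ± 0.57, and the level with CLE9 was 13.8, 6.10 and 8.61 times that of the control of the same number. For both genes the control with the highest level, replicate 2, was the library in which the touch and wounding list was also high. It exceeded the mean of the other controls 6.20-fold for AT4G01700 and 3.56-fold for AT1G02360, and the part of this departure in the results was not tested. Without control replicate 2 the changes were 4.64 and 3.66. Without CLE9 replicate 2 they were 3.28 and 2.74, and without both replicate 2 libraries 4.13 and 3.32.

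**Figure D1:**
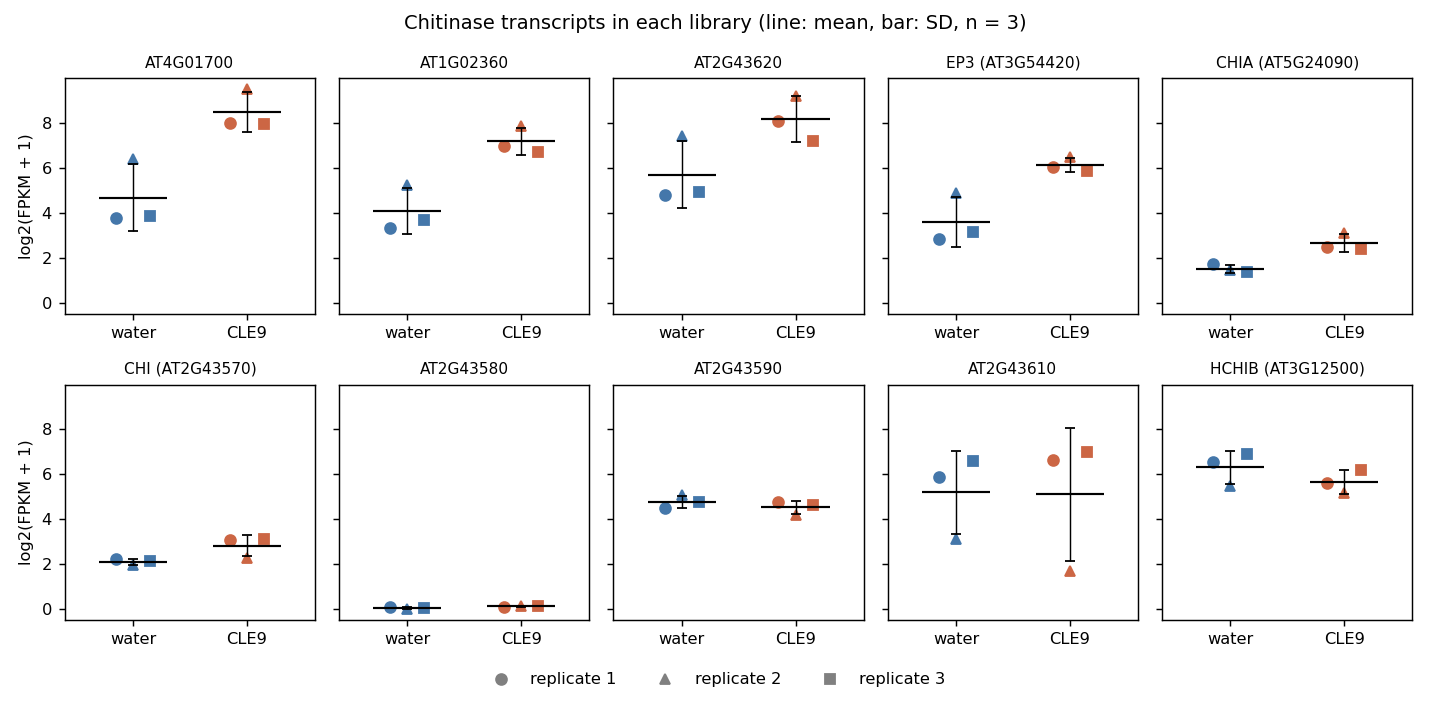
Level of each of the 10 chitinase genes in the 6 libraries, as log2(FPKM + 1), with water in blue and CLE9 in orange, marker shape giving the replicate number, the line the mean and the bar the SD (n = 3). AT4G01700, AT1G02360, EP3, CHIA and CHI have no overlap between groups, and AT2G43610 is low in replicate 2 of both groups.

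The remaining 7 family 19 members carry the chitin-binding domain. EP3 (AT3G54420), named for its likeness to an endochitinase of carrot embryo cultures (chromosome 3, 20145910 to 20147063, plus strand), was at 6.06, 28.03 and 7.73 FPKM with water and, in the CLE9 libraries, 64.03, 87.1 and 56.7 FPKM. All CLE9 libraries were above all controls, with a change of 2.51 ± 0.55. Its levels were 10.6, 3.11 and 7.34 times those of the controls of the same number. HCHIB (AT3G12500), the basic chitinase PR3 that is widely used as a marker of ethylene and jasmonate responses (chromosome 3, 3962382 to 3963984, minus strand), was at 91.4, 42.6 and 115.4 FPKM with water, against 48.0, 34.03 and 71.6 FPKM with CLE9. It was lower with CLE9 in each of the 3 pairs, but the groups overlapped and the change was -0.64 ± 0.45. It was lowest in replicate 2 of each group, where AT4G01700 was highest. An antisense RNA gene, AT3G12502, overlaps HCHIB in the TAIR10.1 annotation, and reads of the pair cannot be told apart. In that annotation the longer model of EP3 also overlaps the protein-coding genes AT3G54430 and AT3G54440 on the other strand, which it does not in the table's coordinates, and AT4G01700 overlaps the long non-coding RNA gene AT4G03985.

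Another 5 members lie in a tandem array of 6 chitinase genes on chromosome 2, all on the minus strand, which spans 18.8 kb with no other gene of the table inside it. AT2G43620 (18093770 to 18095025) was at 26.5, 166.2 and 29.2 FPKM in the water libraries, against 270.3, 581.8 and 142.5 FPKM with CLE9. CLE9 replicate 3 lay below control replicate 2, so the groups overlapped. The level with CLE9 was 10.2, 3.501 and 4.89 times that of the control of the same number. The change was 2.45 ± 0.85.

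Its neighbour AT2G43610 (18087840 to 18089224), 81.3% identical to it over 846 aligned coding bases, had an unlike profile. It was at 57.1, 7.61 and 92.7 FPKM with water and, in the CLE9 libraries, 95.98, 2.21 and 124.5 FPKM. Replicate 2 was by far the lowest in both groups, 9.83-fold below the mean of the other controls and 49.9-fold below the mean of the other CLE9 libraries, while AT2G43620 in the same libraries was 5.98-fold and 2.82-fold above. The change between the groups was -0.09 ± 1.63, and it ran from -1.12 to 1.61 when single libraries were left out. Root markers were low in the same 2 libraries, with sums of 63.6 and 41.9 FPKM against 111.4 to 138.7 FPKM in the other 4, and their part in the level of AT2G43610 was not tested. The table's coordinates put no other gene over either of them, but a share of their reads may align to both copies.

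**Figure D2:**
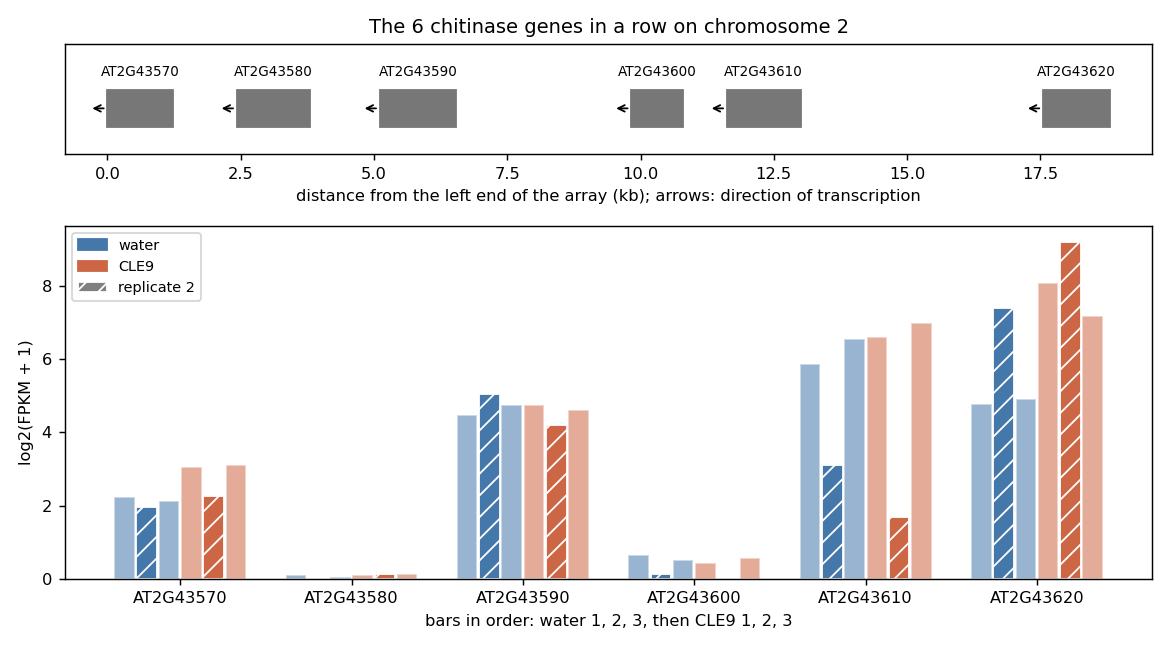
The 6 chitinase genes of the array on chromosome 2, drawn by distance from its left end in kb (top), and their levels as log2(FPKM + 1) in the 6 libraries (bottom; blue water, orange CLE9, hatched replicate 2). In replicate 2, AT2G43620 is high and AT2G43610 low in both groups.

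The other array members had lower means in both groups, although AT2G43590 was above AT2G43610 in replicate 2 of each group. CHI (AT2G43570, 18076224 to 18077463) was at 3.66, 2.87 and 3.32 FPKM with water, against 7.24, 3.81 and 7.62 FPKM with CLE9. The groups did not overlap, and the CLE9 library closest to the controls was replicate 2. The change was 0.71 ± 0.26. AT2G43590 (18081331 to 18082767) was at 21.2, 31.9 and 25.7 FPKM in the water libraries, against 25.8, 17.2 and 23.4 FPKM with CLE9, with a change of -0.24 ± 0.23 and no common direction in the pairs. AT2G43580 (18078649 to 18080028), its closest relative among the members (81.9% identical over 795 aligned bases), had a highest level of 0.102 FPKM over the 6 libraries, about 2 fragments. It was the member that failed the filter of a mean of 1 FPKM, and the other 9 were above 1 FPKM in every library.

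CHIA (AT5G24090, chromosome 5, 8143699 to 8145252, minus strand), the acidic endochitinase of family 18, was at 2.29, 1.77 and 1.59 FPKM with water and, in the CLE9 libraries, 4.63, 7.61 and 4.26 FPKM. The groups did not overlap, and the change was 1.14 ± 0.24. Unlike the genes with the largest changes it was not raised in control replicate 2, where it was 0.913 times the mean of the other controls. AT4G01700, AT1G02360, AT2G43620 and EP3 were each above both other controls there.

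Of the 9 members tested, 0 were called by limma with group only (adjusted p under 0.05 over all 17812 genes tested), where 0.00561% of all genes were called, and 6 were higher at an unadjusted p under 0.05 and 0 lower, beside 5.83% and 3.07% of all genes. With the replicate number as a block, 4 were called higher (AT4G01700, AT1G02360, AT2G43620 and EP3) and 0 lower, where 1.75% of all genes were called higher, 0.247% lower and 1.99% in either direction. The CLE9 libraries lay wholly above the controls for 5 of the 9 and wholly below them for 0, beside 8.51% and 7.47% of all genes tested (16.0% in either direction). A total of 6 were higher in all 3 pairs, beside 19.8%, and 1 was lower, beside 26.0%. The median change of these 9 was 1.14, beside -0.05 over all genes tested, and it was 0.93 over all 10 members. As the members were chosen on this contrast, nothing is read from these counts.

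**Figure D3:**
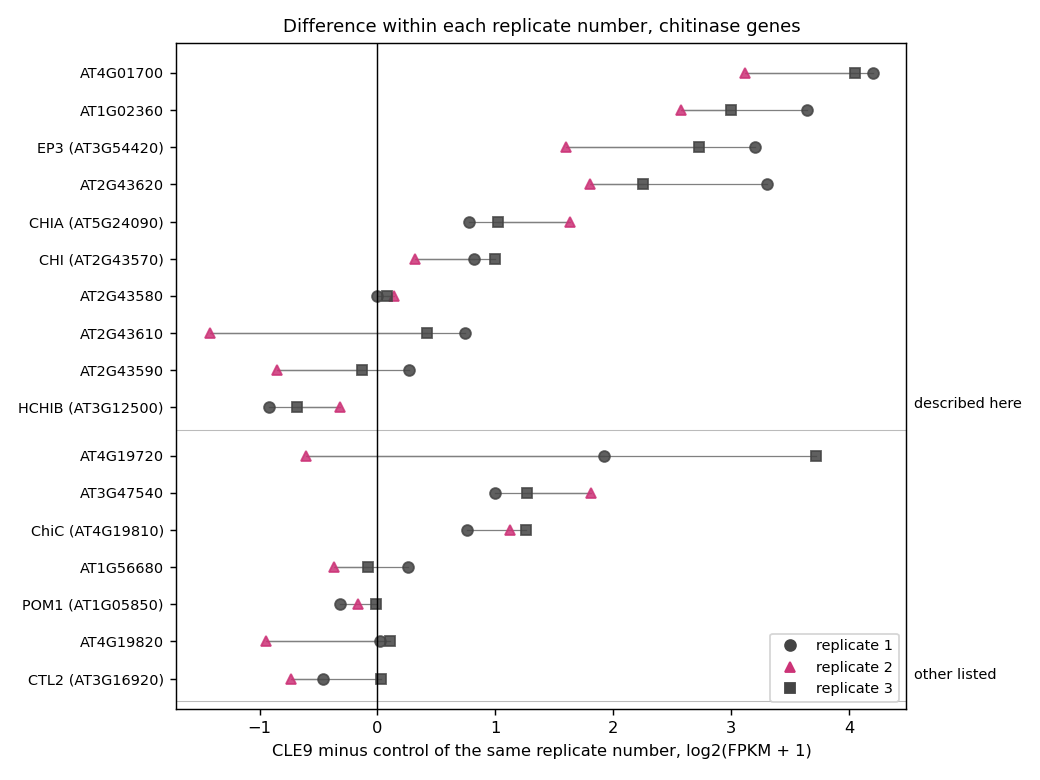
Difference between the CLE9 and the water library of the same replicate number, in log2(FPKM + 1), for the 10 chitinase genes described here and the 7 other listed chitinase genes that were tested, with replicate 2 in pink triangles. AT4G01700 lies between 3.11 and 4.204 in the 3 pairs, and HCHIB lies below 0 in all of them.

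The make-up of the summed level of the 10 members differed with the library. As the members were chosen on this contrast, the sums and shares describe these 10 genes and not all chitinase transcripts. The 14 other listed chitinase genes summed to between 313.1 and 445.7 FPKM with water and between 323.1 and 459.7 FPKM with CLE9. The summed level of the 10 genes was 230 FPKM in control replicate 1, 399.7 in replicate 2 and 301.1 in replicate 3, and it was 891.7, 1674 and 773.8 FPKM in CLE9 replicates 1, 2 and 3. HCHIB was the most abundant member in control replicates 1 and 3, with 39.8% and 38.3% of the sum, followed by AT2G43610 with 24.8% and 30.8%. In control replicate 2 the leading members were AT2G43620 (41.6%) and AT4G01700 (20.4%). With CLE9 the same pair led in all 3 libraries, AT4G01700 with 28.1%, 42.6% and 31.2% and AT2G43620 with 30.3%, 34.7% and 18.4%. AT4G01700, AT1G02360, AT2G43620 and EP3 together made up 23.6%, 78.3% and 20.7% in controls and 79.6%, 96.1% and 70.1% with CLE9, a grouping chosen after their values were seen. In the share of these 4 genes control replicate 2 lay within the range of the CLE9 libraries, while its summed level was below all of theirs. Shares of other members were less alike. AT2G43590 made up 7.99% in control replicate 2, against 2.89%, 1.03% and 3.03% in CLE9 replicates 1, 2 and 3. AT2G43610 made up 1.91%, against 10.8%, 0.132% and 16.1%.

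**Figure D4:**
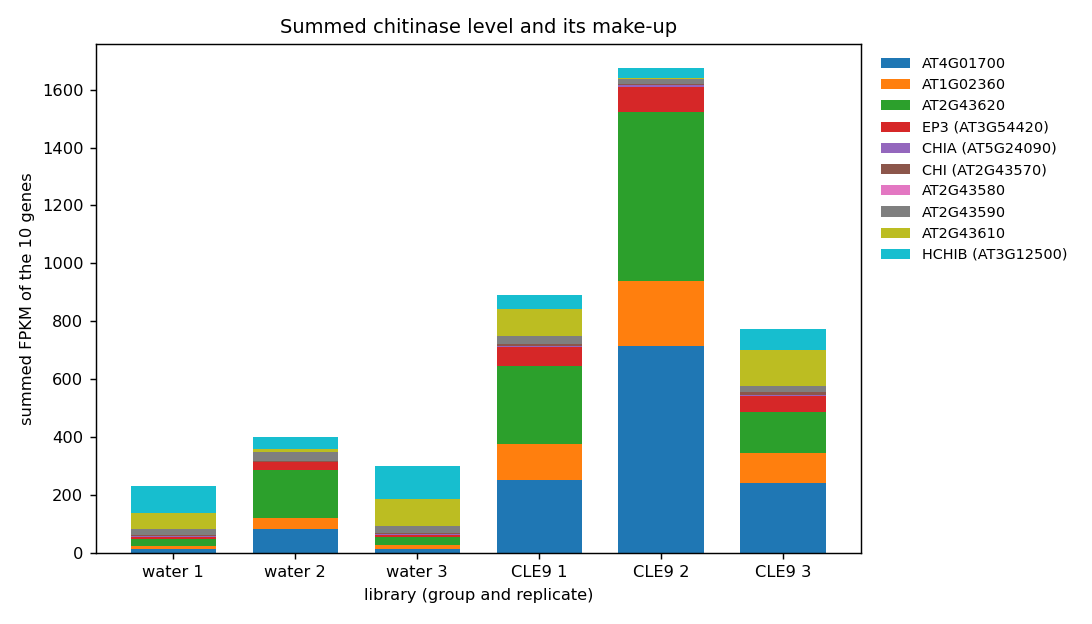
Summed FPKM in each library of the 10 chitinase genes described here, which were chosen with the CLE9 contrast known, stacked by gene. The sums are between 230 and 399.7 FPKM with water and between 773.8 and 1674 FPKM with CLE9, and HCHIB leads only in water replicates 1 and 3.

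The genes whose profile over the 6 libraries was most like that of AT4G01700, by the root mean square distance of mean-centred log2(FPKM + 1) values among 17811 other genes, were the berberine-type oxidase gene AT1G26420 (distance 0.36), AT1G51920 of no annotated function (0.404), the glutathione transferase gene GSTF7 (0.44), a second berberine-type oxidase gene, AT1G26380 (0.46), and the acyltransferase gene AACT1 (0.47). GSTF7 was at 30.5, 414.4 and 50.9 FPKM with water, against 822.2, 1420 and 638.9 FPKM with CLE9, again highest in replicate 2 of each group. Nearest to AT1G02360 were the acyltransferase gene AT5G42830 (0.15), ASB1 for a subunit of anthranilate synthase in tryptophan synthesis (0.26), SUFE2 (0.32), the xylosyltransferase gene RGXT2 (0.33) and the chitinase gene EP3 (0.33). AT1G02360 was the 9th nearest to AT4G01700, at 0.49, and AT4G01700 the 28th nearest to AT1G02360.

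Another 14 chitinase genes of families 18 and 19 were listed beside the members, and 7 of them were tested. With group only 0 were called, and 1 had an unadjusted p under 0.05 with CLE9 higher, beside 5.83% of all genes. With the block 1 rose and 0 fell, beside 1.75% and 0.247% of all genes. The gene that rose was AT3G47540, a family 19 gene with no chitin-binding domain annotated. Its coding sequence is 85.4% identical to that of AT2G43590 over 635 aligned bases. It was at 3.202, 3.19 and 2.63 FPKM in the water libraries, against 7.38, 13.7 and 7.78 FPKM with CLE9, with no overlap, a change of 1.36 ± 0.26 and a limma adjusted p of 0.255, or 0.0482 in the blocked fit. It was not raised in control replicate 2.

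POM1 and CTL2, chitinase-like genes known for their part in cell wall assembly, had changes of -0.17 ± 0.30 and -0.39 ± 0.31. POM1 was at 363.2 ± 75.9 FPKM with water and, in the CLE9 libraries, 324.2 ± 72.7 FPKM. ChiC, of family 18, was at 6.93, 27.1 and 6.55 FPKM with water, against 12.4, 60.3 and 17.1 FPKM with CLE9, higher in each pair but with overlapping groups (limma adjusted p = 0.751, or 0.0515 in the blocked fit). AT1G56680, like AT2G43610, was low in replicate 2 of both groups, at 0.294 FPKM against 6.11 and 7.07 FPKM in the other controls and listed at 0 against 7.49 and 6.63 FPKM with CLE9. AT4G19720 was at 1.67, 0.793 and 1.18 FPKM in the water libraries, against 9.10, 0.176 and 27.6 FPKM with CLE9, so that its change of 1.68 ± 1.12 rested on CLE9 replicates 1 and 3. The 7 listed genes that were not tested had means below 1 FPKM, and AT4G19730 was listed at 0 in every library. POM1, CTL2, ChiC, AT1G56680 and AT4G19720 were named after their values were seen.

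Genes of chitin perception and the kinases after it were compared as a list of 15, of which 14 were tested. CERK1, the lysin-motif receptor kinase required for chitin responses, was at 9.53, 18.9 and 10.9 FPKM with water and, in the CLE9 libraries, 53.96, 44.3 and 66.6 FPKM. Its groups did not overlap, and its change of 2.02 ± 0.30 had an adjusted p by limma of 0.239 without the block and 0.0482 with it. It was the 1 gene of the list that rose with the block, and 0 fell, beside 1.75% and 0.247% of all genes. With group only 0 of the 14 were called and 4 had an unadjusted p under 0.05, all with CLE9 higher, beside 5.83% of all genes. A total of 10 were higher in all 3 pairs and 0 lower, beside 19.8% and 26.0% of all genes. The median change was 1.04, beside -0.05 over all genes tested.

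The other receptor genes of the list and 2 of its kinase genes were named after their values were seen. LYK4, a co-receptor of chitin perception, was at 6.23, 15.9 and 5.52 FPKM with water, against 20.8, 31.96 and 33.6 FPKM with CLE9 (adjusted p = 0.328 and 0.0603 by limma without and with the block). LYK5, the main chitin-binding receptor, was at 2.58, 28.3 and 2.03 FPKM and at 6.58, 43.8 and 13.02 FPKM, with overlapping groups (limma adjusted p = 0.777 and 0.110). LYM2, a lysin-motif protein that acts in chitin-triggered closure of plasmodesmata, was at 19.7, 33.97 and 16.9 FPKM in the water libraries, against 93.3, 49.7 and 144.4 FPKM with CLE9 (limma adjusted p = 0.305 and 0.111). LYK3 was at 12.3, 22.6 and 10.7 FPKM with water, against 4.91, 25.6 and 7.11 FPKM with CLE9 (change -0.51 ± 0.61). LYK2 was not tested. LYM1 and LYM3, which bind peptidoglycan, had changes of 0.02 ± 0.18 and -0.21 ± 0.19. MAPKKK5, which links CERK1 signalling to the MAP kinases, was at 19.02, 28.7 and 16.7 FPKM and at 49.2, 42.95 and 44.2 FPKM (limma adjusted p = 0.281 and 0.0733). The kinase gene AT5G18610 had a change of -0.05 ± 0.14. Of the 14 tested, 11 genes were above both other controls in control replicate 2, beside 30.3% of all genes. Without both replicate 2 libraries 8 of the 14 rose and 1, LYK3, fell in limma's group-only test, where 8.41% of all genes rose and 2.95% fell.

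**Figure D5:**
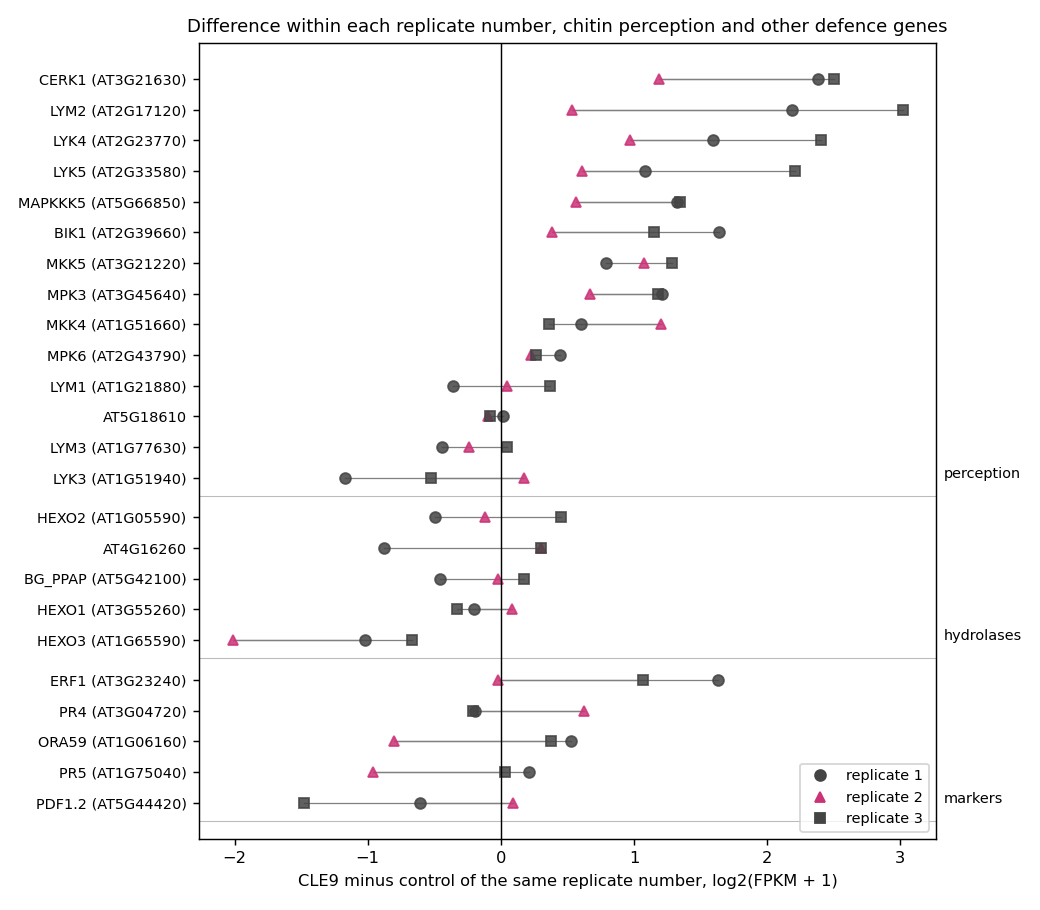
Difference between the CLE9 and the water library of the same replicate number, in log2(FPKM + 1), for tested genes of chitin perception, of glucanases and hexosaminidases (hydrolases), and of pathogenesis markers, with replicate 2 in pink triangles. The 3 pairs of CERK1 all lie above 1, and those of PR4 lie on both sides of 0.

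Other hydrolases and markers often studied beside chitinases were listed as well. Of 8 genes of beta-1,3-glucanases, which cleave the other main polymer of fungal walls, and hexosaminidases, which release N-acetylglucosamine, 5 were tested. With group only or with the block 0 were called, beside 0.00561% and 1.99% of all genes. An unadjusted p under 0.05 was found for 0 of the 5, beside 5.83% (higher) and 3.07% (lower) of all genes. At these shares 0 of 5 does not set the list apart. HEXO3 was at 37.3, 23.8 and 36.6 FPKM with water and, in the CLE9 libraries, 17.9, 5.14 and 22.7 FPKM. It was lower in each pair, with no overlap (change -1.23 ± 0.53, limma adjusted p = 0.589, or 0.0979 in the blocked fit). Without both replicate 2 libraries limma's group-only test called it lower (change -0.84, adjusted p = 0.0240), where 2.95% of all genes fell. HEXO1, HEXO2 and the glucanase gene BG_PPAP had changes between -0.15 and -0.05. BGL2, which encodes the pathogenesis-related glucanase PR2, was not tested, and its highest level was 1.94 FPKM.

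Of 7 pathogenesis markers 5 were tested, with 0 called in either fit. Of all genes 0.00561% were called with group only and 1.99% with the block. An unadjusted p under 0.05 was found for 0 of the 5, beside 5.83% (higher) and 3.07% (lower) of all genes. At these shares 0 of 5 does not set the markers apart. PR4 is a hevein-like chitin-binding protein gene and like HCHIB a marker of ethylene and jasmonate responses. The annotation used here also gives PR4 a family 19 domain, but it was not listed with the chitinases. PR4 was at 138.8, 114.6 and 164.9 FPKM with water, against 120.9, 177.4 and 142.5 FPKM with CLE9 (change 0.07 ± 0.25). The defensin gene PDF1.2 had a change of -0.67 ± 0.35, PR5 one of -0.24 ± 0.37 and ERF1, a transcription factor gene of the ethylene response, one of 0.89 ± 0.48. Without both replicate 2 libraries limma's group-only test called ERF1 higher (adjusted p = 0.0105) and PDF1.2 lower (adjusted p = 0.0428). In that fit 8.41% of all genes rose and 2.95% fell. PR1, the marker of salicylic acid responses, was not tested, and its highest level was 1.17 FPKM.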

How the data were processed

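The deposited table gives FPKM per gene and library, computed by the authors, with build TAIR10 per the submitters' processing notes, which list the tools DESeq2 1.16.1, featureCounts 1.5.0-p3, StringTie 1.3.3b, HISAT2 2.0.5 and CASAVA 1.8 without roles. No label states strand-specific counting. Depth was estimated from single-exon genes (39.9% to 54.9% of low values whole within 0.1 fragments, 20% by chance), so reads were not recovered.

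The 17812 genes whose mean over the 6 libraries reached 1 FPKM were tested as log2(FPKM + 1) with limma 3.58.1 in R 4.3.3. The fit was group only, with trend, two-sided, with Benjamini-Hochberg adjustment over all of them. The step was first run on simulated data that recovered known changes. Those data had less spread than these controls and no departure of replicate 2, so that run does not show the power here. The members, lists and tests were chosen with earlier results of these data known. The 10 members, the genes called in each list (otherwise its 4 smallest p-values) and the 5 nearest profiles were named by rule. Replicate numbers were taken to pair the libraries by a threshold of 0.1 for the correlation of deviations from the group means. These correlated at 0.545, 0.743 and 0.583 for numbers 1, 2 and 3. Deviations within a group cancel out, so a departure shared by the replicate 2 libraries also makes numbers 1 and 3 correlate. The threshold could thus hardly fail for them and gives no ground for pairing them. The crossed combinations of numbers 1 and 3 correlated more strongly (0.664 for control replicate 1 with CLE9 replicate 3 and 0.620 for control replicate 3 with CLE9 replicate 1). The data thus set number 2 apart and do not tell 1 from 3, and folds within a number and blocked calls rest on the numbers as labelled.

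Of 27416 locus identifiers 26719 matched RefSeq's TAIR10.1 annotation, used for symbols, domains, coding sequences and upstream sequences, each with its own coordinates. Coding sequences were aligned globally with Biopython 1.88, and identity was taken over aligned bases.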

Additional observations from a re-analysis of the deposited data

How the results depend on the processing

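The call rule depends on the handling of replicate 2, and the causes were not tested. Over the whole table limma called 1 gene with group only, 355 with the replicate block, 4884 with array weights, 2024 without both replicate 2 libraries, 3 without a filter, 3 with a minimum mean of 5 FPKM and 2 after quantile normalization. Leaving out single libraries gave 0 to 204 calls, the 204 without control replicate 2. The blocked fit without 1 pair (added after the data were seen) gave 0 to 1870, the 1870 without pair 2. Other chitinase genes went from 0 calls to 1 with the block and 3 with array weights or without both replicate 2 libraries (0 to 3 without 1 pair). Chitin perception went from 0 to 1, 10 and 9 (0 to 2 without single libraries, 0 to 9 without 1 pair), with CERK1 called at an adjusted p of 0.0322 without control replicate 2. Glucanases and hexosaminidases went from 0 to 1 and pathogenesis markers from 0 to 2, with array weights or without both replicate 2 libraries (0 to 1 and 0 to 2 without 1 pair). The other alternatives left these lists at 0.

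The members' median change of 0.93 was 1.155 and 1.04 with pseudocounts of 0.1 and 0.5 FPKM, and 0.88 to 1.30 without single libraries, and was not computed for the filters, quantile normalization or array weights. Members called higher numbered 0 with group only, 4 with the block, 3 without control replicate 2, 6 without both replicate 2 libraries and 0 in the blocked fit without pair 1 or 3. That fit without pair 2 called 6 higher and HCHIB lower. Over the whole table the genes called higher numbered 0 with group only, 311 with the block and 195 without control replicate 2. They numbered 1498 without both replicate 2 libraries and 0 in the blocked fit without pair 1 or 3. The blocked fit without pair 2 called 1430 genes higher and 440 lower. As the members were chosen on this contrast, nothing is read from their counts. AT4G01700 kept a change between 3.28 and 4.64 without single libraries, AT1G02360 one between 2.70 and 3.66, and of the 9 tested members AT2G43610 alone changed sign when single libraries were left out. Its change was 0.87 with array weights and 0.58 without both replicate 2 libraries, where that of AT2G43590 also changed sign, from -0.24 to 0.09 and 0.07. The median of all genes was -0.13 without control replicate 2.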
